A study of Mus musculus with 2 samples.

Results

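The miR-181 family was examined in small RNA sequencing of sperm from naive WT mice. Its entries were found by name in the deposited miR counts, as every mature miR named miR-181a, miR-181b, miR-181c or miR-181d, with either arm and any copy number. This gave 10 entries of the 1886 listed, 4 from 5p arms and 6 from 3p arms. The study asked which sperm miRs could carry an acquired trait to the offspring, and these libraries served as its inventory of miRs in unexposed animals. Both libraries were made from sperm of C57BL/6J WT mice, 3 months old, described as naive and as independent biological replicates. The sperm had swum out of the dissected epididymis and was treated with a detergent buffer to lyse somatic cells. How many mice gave each library was not given in the sources used here. The naive label stands beside the string POSTTREAT in the names of the count tables, and this was not resolved. As there was 1 condition with 2 libraries, no test between conditions was made.

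The miR-181 family is conserved among vertebrates and is best known from the immune system, where miR-181a sets the sensitivity of developing T cells to antigen, and from the brain. Each miR is cut from a hairpin precursor whose 5p or 3p arm is loaded into an Argonaute protein. A loaded miR recognizes mRNAs mainly through its seed, bases 2 to 8, so miRs with the same seed are expected to share many targets. The family has 6 hairpins in the mouse, arranged as 3 pairs.

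The 4 mature 5p miRs are shown because they carry nearly all the reads of the family and differ in few bases. Sequences were taken from RefSeq (GRCm38.p6), in which all 10 entries had a match, and are written 5′ to 3′ with the seed in capitals.
miR-181a-5p: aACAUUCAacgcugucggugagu
miR-181b-5p: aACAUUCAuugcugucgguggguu
miR-181c-5p: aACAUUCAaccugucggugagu
miR-181d-5p: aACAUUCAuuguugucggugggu

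All 4 had the seed ACAUUCA, and no other mature miR of the RefSeq table, which holds 1679 names, had it. Counted from the 5′ end, miR-181a-5p and miR-181b-5p differed by A9U, C10U and A21G over 23 bases. miR-181b-5p and miR-181d-5p differed by C12U alone over 23 bases, and miR-181b-5p has an additional base at its 3′ end. Removal of the base at position 11 of miR-181a-5p gives miR-181c-5p. No stretch of 15 bases, the shortest read the authors kept, was shared between any pair of the 4, or between 1 of them and a RefSeq mature miR outside the family. A read that matches without mismatch can therefore belong to only 1 of the 4 mature sequences. Of the 1886 listed entries, 1608 were found by name in RefSeq, and the others were not compared. A sequencing error at position 12 would still move a read between miR-181b-5p and miR-181d-5p.

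The 3p arms of miR-181a and miR-181c are shown because they tell apart precursors that the 5p reads cannot. miR-181a-5p is encoded identically by Mir181a-1 and Mir181a-2, and miR-181b-5p identically by Mir181b-1 and Mir181b-2, whereas the 3p arms of these copies differ.
miR-181a-1-3p: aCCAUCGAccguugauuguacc
miR-181a-2-3p: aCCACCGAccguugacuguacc
miR-181c-3p: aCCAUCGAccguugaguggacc

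miR-181a-1-3p and miR-181a-2-3p differed by U5C and U16C, of which the first lies in the seed. miR-181a-1-3p and miR-181c-3p had the same seed and differed by U16G and U19G. They share 1 stretch of 15 bases at the 5′ end, so a read cut down to that stretch could belong to either. The hairpin of Mir181a-1 is printed with both arms in capitals, to show where the 2 mature strands lie.
Mir181a-1: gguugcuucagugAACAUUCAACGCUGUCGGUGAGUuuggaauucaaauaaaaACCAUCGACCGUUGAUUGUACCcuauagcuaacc

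The 3 pairs of hairpins lie on different chromosomes (GRCm38, annotation GENCODE M21). Mir181a-1 lies on chromosome 1, plus strand, from 137966455 to 137966541, and the 5p arm of Mir181b-1 starts 182 bases after that of Mir181a-1. Both lie in intron 2 of the non-coding transcript Gm4258 on the same strand, and Mir181b-1 is also within exon 1 of the lincRNA A430106G13Rik. Mir181a-2 lies on chromosome 2, plus strand, from 38852735 to 38852810, with a distance of 1104 bases between its 5p arm and that of Mir181b-2. This pair lies opposite to Nr6a1, in an intron of that gene, which encodes an orphan nuclear receptor also known as germ cell nuclear factor. Mir181c and Mir181d lie on chromosome 8, minus strand, with 164 bases between the starts of their 5p arms. miR-181c-5p itself spans positions 84178924 to 84178945. Both are within intron 1 of a Nanos3 transcript on the same strand, and Nanos3 encodes an RNA-binding protein needed for the survival of early germ cells. The libraries hold small RNAs only and give no level for these overlapping genes.

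**Figure D1:**
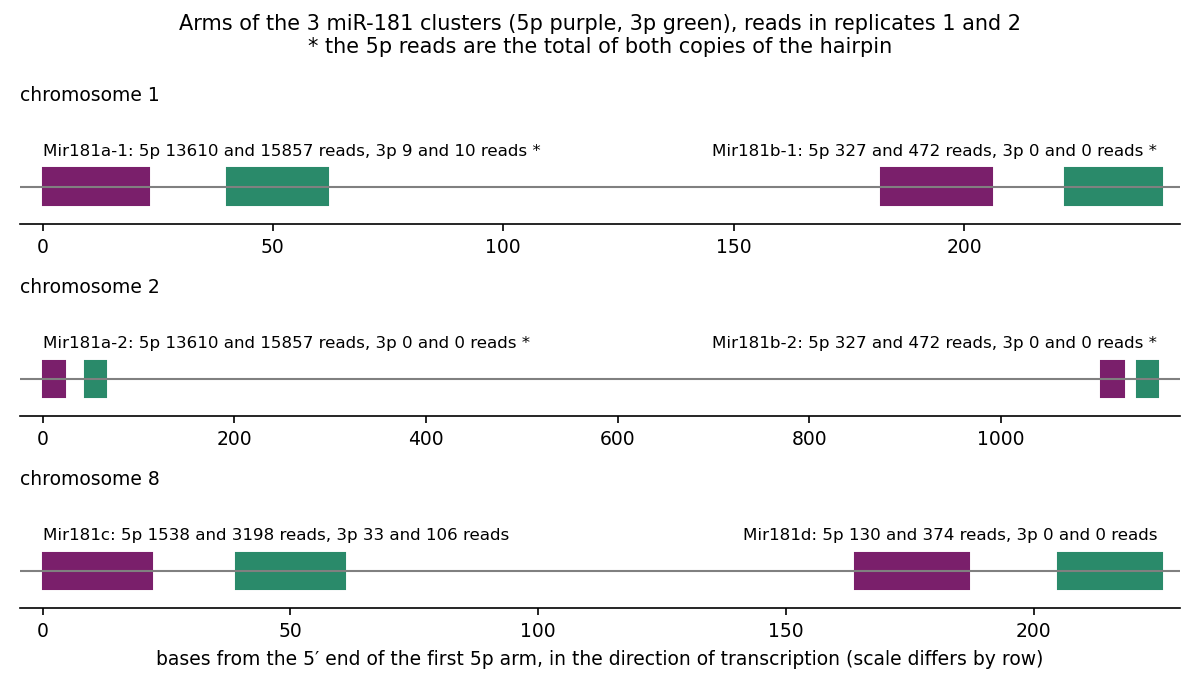
Positions of the 5p arms (purple) and 3p arms (green) in the 3 miR-181 clusters, in bases from the 5′ end of the first 5p arm, with the reads in replicates 1 and 2 above each hairpin. Reads on 3p arms were listed for Mir181a-1 and Mir181c only; the 5p reads of miR-181a and miR-181b are totals over 2 copies and cannot be divided between chromosomes 1 and 2.

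The first library held 4049599 miR reads and the second 5648067, while 38.1% and 26.3% of the listed reads were assigned to no miR. Levels are given as CPM, reads per 1000000 miR reads of the library, and 3 reads, the smallest level taken as readable, correspond to 0.741 and 0.531 CPM. Intervals cover the counting error of reads only and not the spread between libraries. The reads carry no molecular identifiers, so repeated copies of a molecule cannot be told from separate molecules. Of the germ cell markers, 6 of 7 were listed and all 6 were detected, at a summed level of 3475 CPM in replicate 1 and 1512 CPM in replicate 2. Markers of other cells were present too. The summed levels in replicates 1 and 2 were 3319 and 7198 CPM for blood (8 of 8 detected), 10745 and 8799 CPM for epithelium (6 of 6), 41205 and 62389 CPM for smooth muscle and stroma (5 of 5), and 501 and 215 CPM for brain (3 of 6, with miR-137-3p, miR-138-5p and miR-219a-5p at 0 reads). Of the 2 endothelial markers, miR-126a-5p had 0 reads. Single miRs held most of these sums. The other markers summed to 492 and 198 CPM for germ cells without miR-34c-5p, to 356 and 495 CPM for smooth muscle and stroma without miR-143-3p, to 2380 and 1722 CPM for epithelium without miR-141-3p, and to 92.6 and 48.5 CPM for brain without miR-9-5p. From these counts the cell of origin of a miR-181 read cannot be told apart, nor can fewer cells of a type from less RNA per cell.

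The family took 15647 reads in replicate 1 and 20017 in replicate 2. These correspond to 3864 CPM (3804 to 3925) and 3544 CPM (3495 to 3593), where parentheses hold Wilson 95% intervals. This amounts to 0.370% ± 0.0226 (SD, n = 2 libraries) of the miR reads. Of the 10 entries, 6 had at least 1 read in each library, against 20% of all 1886 entries. The remaining 4, all 3p arms, had 0 reads in both libraries. A minimum of 10 reads in each library was passed by 5 family entries (12.9% of all entries), a minimum of 10 CPM by 4 (8.06%) and a minimum of 100 CPM by 2 (3.76%), namely miR-181a-5p and miR-181c-5p.

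miR-181a-5p, the member with the best described function in lymphocytes and neurons, was the most abundant. It had 13610 reads in replicate 1 and 15857 in replicate 2, or 3361 CPM (3305 to 3418) and 2808 CPM (2764 to 2851), a mean of 3084 ± 391 CPM (SD, n = 2). By mean CPM it ranked 16th of the 378 entries with a read in each library, and it was 15th in replicate 1 and 16th in replicate 2. It was thus among the common miRs of these sperm libraries although it made up only 0.308% ± 0.0391 (SD, n = 2) of the miR reads. Most miR reads came from miR-10a-5p (25.8% in replicate 1 and 23.1% in replicate 2) and miR-10b-5p (52.2% and 57.3%).

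miR-181c-5p followed with 1538 and 3198 reads, or 380 CPM (361 to 399) and 566 CPM (547 to 586), a mean of 473 ± 132 CPM (SD, n = 2) and rank 40. miR-181b-5p had 327 and 472 reads, or 80.7 CPM (72.5 to 90.0) and 83.6 CPM (76.4 to 91.5), a mean of 82.2 ± 1.99 CPM (SD, n = 2) and rank 81. miR-181d-5p had 130 and 374 reads, or 32.1 CPM (27.0 to 38.1) and 66.2 CPM (59.8 to 73.3), a mean of 49.2 ± 24.1 CPM (SD, n = 2) and rank 103. The order miR-181a-5p, miR-181c-5p, miR-181b-5p, miR-181d-5p held in both libraries, and no neighbours in it had overlapping values. The gap was smallest between miR-181b-5p and miR-181d-5p, with a ratio of 2.52 in replicate 1 and 1.26 in replicate 2. Since both come from 2 libraries only, the spread of that ratio is poorly known.

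Among the 3p arms, miR-181c-3p had 33 and 106 reads, or 8.15 CPM (5.80 to 11.4) and 18.8 CPM (15.5 to 22.7). miR-181a-1-3p had 9 and 10 reads, or 2.22 CPM (1.17 to 4.22) and 1.77 CPM (0.962 to 3.26). The 3p arm of miR-181c was thus more abundant than that of miR-181a by 3.67 times in replicate 1 and 10.6 times in replicate 2, although the 5p arms had the opposite order. miR-181a-2-3p, miR-181b-1-3p, miR-181b-2-3p and miR-181d-3p had 0 reads in both libraries. For each of them the Wilson interval reached up to 0.949 CPM in replicate 1 and 0.680 CPM in replicate 2.

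**Figure D2:**
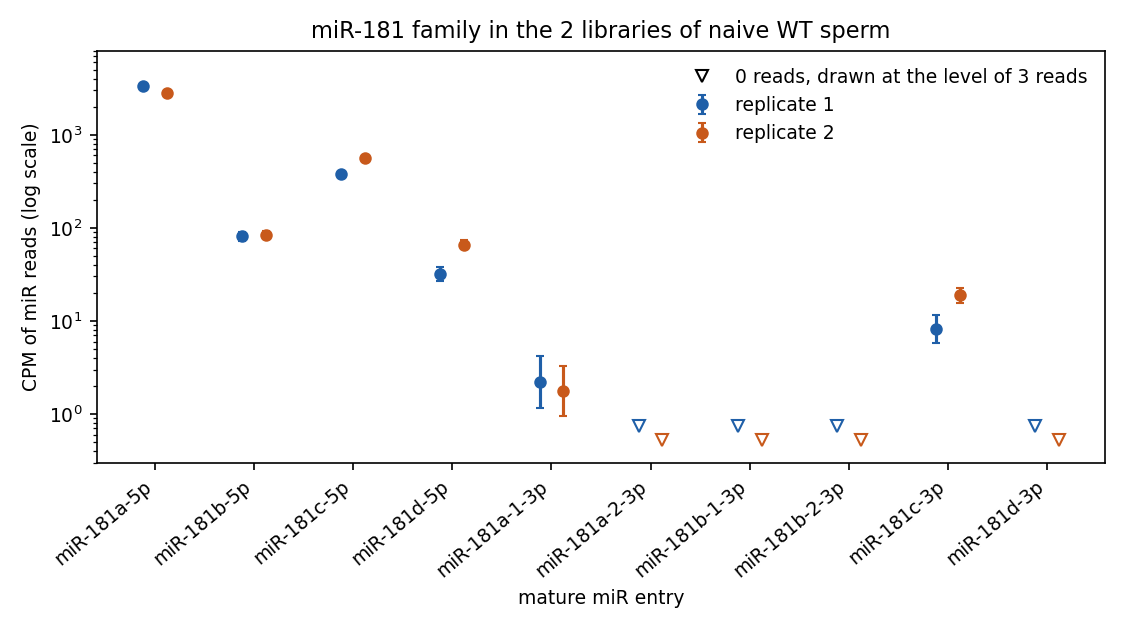
CPM (log scale) of the 10 miR-181 entries in replicate 1 (blue) and replicate 2 (orange), with Wilson 95% intervals for counting error; open triangles mark entries with 0 reads, drawn at the level of 3 reads. miR-181a-5p lies at 3361 and 2808 CPM, far above the other members, and the pairs of points are widest apart for miR-181d-5p and miR-181c-3p.

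The reads of the family were nearly all from 5p arms, with 99.6% of them in the mean of both libraries. For miR-181a the 5p share was 99.93% (Wilson 95% interval 99.87% to 99.97%) in replicate 1 and 99.94% (99.88% to 99.97%) in replicate 2. For miR-181c it was lower, at 97.9% (97.1% to 98.5%) and 96.8% (96.1% to 97.3%), and the intervals of miR-181a and miR-181c did not overlap in either library. The 3p arm took 0.0661% and 0.0630% of the miR-181a reads but 2.10% and 3.21% of the miR-181c reads. Outside the family, 132 names had both arms listed and at least 100 reads, and the median share of their main arm was 99.4%. A main arm with at least 95% of the reads was found in 75.8% of these names, so a strong preference for 1 arm was the usual case.

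What the 0 reads on the 3p arms of miR-181b and miR-181d allow depends on the arm ratio they are set beside. With the 3p to 5p ratio of miR-181a, the 5p reads of miR-181b would correspond to 0.216 and 0.298 reads on its 3p arms, which could not have been seen. With the ratio of miR-181c they would correspond to 7.02 and 15.6 reads. For miR-181d the ratio of miR-181c would correspond to 2.79 and 12.4 reads. A share of up to 0.917% and 0.636% of the miR-181b reads, and of up to 2.31% and 0.802% of the miR-181d reads, is allowed for the 3p arms at this depth. For miR-181b in both libraries and for miR-181d in replicate 2, these limits lay below the 3p shares of miR-181c (2.10% and 3.21%), whereas for miR-181d in replicate 1 the limit lay above. None of them reached down to the 3p share of miR-181a.

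The 3p reads of miR-181a were listed for the chromosome 1 copy alone. Over both libraries, 19 of 19 reads fell on miR-181a-1-3p and 0 on miR-181a-2-3p, a share of 100% (exact 95% interval 82.4% to 100%). The interval treats the pooled reads as independent and covers counting error only. A read cut to the 15 bases shared with miR-181c-3p (33 and 106 reads) could belong to either entry. The share holds for the 3p strands only, and the 5p reads of the copies on chromosomes 1 and 2 cannot be told apart.

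The members made up different parts of the family in the 2 libraries. This comparison is within a library and does not depend on how the libraries are scaled to each other. miR-181a-5p took 87.2% of the 5p reads in replicate 1 (Wilson 95% interval 86.7% to 87.7%) and 79.7% in replicate 2 (79.1% to 80.2%). miR-181c-5p took 9.86% (9.40% to 10.3%) and 16.1% (15.6% to 16.6%), and miR-181d-5p took 0.833% (0.702% to 0.988%) and 1.88% (1.70% to 2.08%). miR-181b-5p took 2.10% (1.88% to 2.33%) and 2.37% (2.17% to 2.59%). The intervals of the libraries were apart for miR-181a-5p, miR-181c-5p and miR-181d-5p and overlapped for miR-181b-5p. Hence 8.85 reads of miR-181a-5p were counted per read of miR-181c-5p in replicate 1, and 4.96 in replicate 2. Per read of miR-181d-5p, 11.8 and 8.55 reads of its cluster partner miR-181c-5p were counted. miR-181a-5p and miR-181b-5p, which share both of their clusters, stood at 41.6 and 33.6 to 1.

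**Figure D3:**
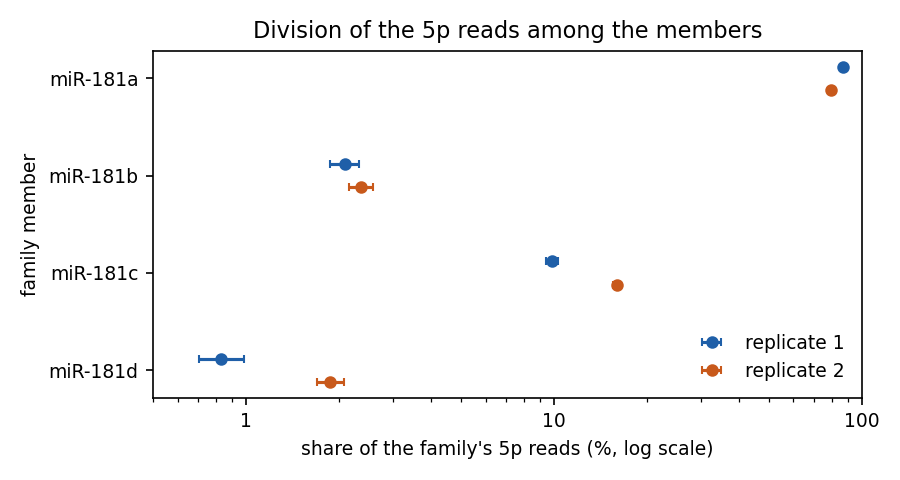
Share of each member in the 5p reads of the family (percent, log scale) in replicate 1 (blue) and replicate 2 (orange), with Wilson 95% intervals. The share of miR-181a was 87.2% in replicate 1 and 79.7% in replicate 2, while miR-181c and miR-181d had larger shares in replicate 2.

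Between libraries, the members had different ratios, for which only the counting error is known. The 3 detected arms of the chromosome 8 cluster were each higher in replicate 2, where log2 ratios are given as replicate 2 over replicate 1: 0.58 for miR-181c-5p (95% interval for counting error 0.49 to 0.66), 1.04 for miR-181d-5p (0.75 to 1.34) and 1.19 for miR-181c-3p (0.63 to 1.81). The 5p reads of miR-181c and miR-181d together stood at 412 CPM and 632 CPM, a log2 ratio of 0.62 (0.53 to 0.70). For miR-181b-5p the log2 ratio was 0.05 (-0.16 to 0.26), and for miR-181a-1-3p, with 19 reads in all, it was -0.34 (-1.78 to 1.15), an interval that holds the values of miR-181c-5p and miR-181d-5p. miR-181a-5p had a log2 ratio of -0.26 (-0.29 to -0.23) by total miR reads, which changed sign to 0.09 under TMM scaling and 0.08 with DESeq2 size factors. These ratios describe 2 samples of 1 condition and are not an effect of anything the study varied.

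The spread over all miRs gives the scale for these ratios. Over the 323 entries with at least 10 reads in both libraries together, the median log2 ratio was -0.29, the central 50% reached from -0.92 to 0.15, and the central 90% from -1.87 to 1.36. TMM scaling shifts every ratio by 0.35, to a median of 0.06. Of the 6 family entries in this set, 2 (miR-181d-5p and miR-181c-3p) were at least 2-fold higher in replicate 2, against 8.67% of the 323 entries, and 0 were at least 2-fold lower, against 22%. Under TMM scaling the counts were again 2 and 0, against 12.1% and 13.3%. Differences of at least 2-fold in either direction occurred in 30.7% of the entries. Among the 165 entries with at least 100 reads together, they occurred in 21.2%, and in 2 of the 5 family entries of that set. In the order of all log2 ratios, which does not change with the scaling, 94.4% of the entries lay below miR-181c-3p, 92.0% below miR-181d-5p and 86.4% below miR-181c-5p. Below miR-181b-5p lay 69.0% of the entries, below miR-181a-5p 52.6% and below miR-181a-1-3p 47.4%. The arms of the chromosome 8 cluster were thus in the upper part of the distribution, but not outside it, and miR-181a-5p was in its middle.

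**Figure D4:**
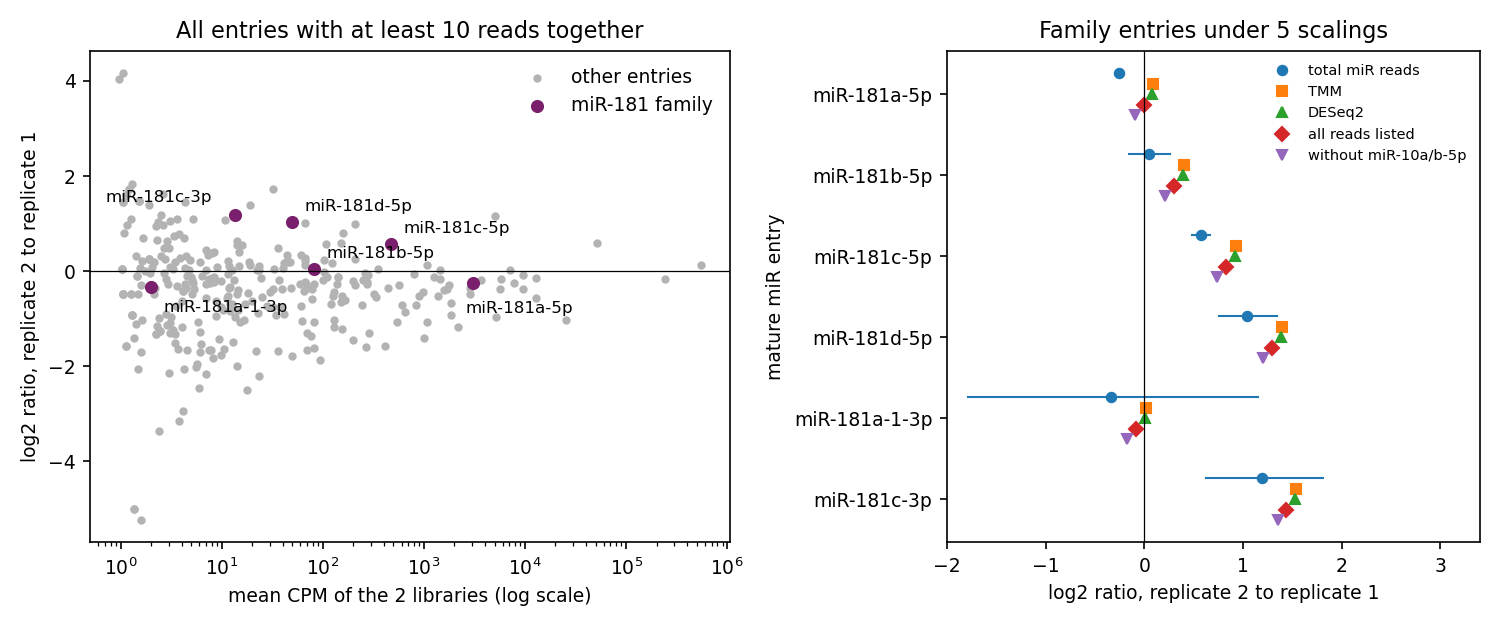
Left, log2 ratio (replicate 2 over replicate 1) against mean CPM (log scale) for the 323 entries with at least 10 reads in both libraries together, with the miR-181 family in purple. Right, the log2 ratios of the 6 detected family entries under 5 scalings, with counting intervals (lines) for the scaling by total miR reads; miR-181c-5p, miR-181d-5p and miR-181c-3p stay above 0 under all 5, whereas miR-181a-5p and miR-181a-1-3p change sign.

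Markers of several cell types differed between the libraries at the same time. Of the 8 blood markers 6 were higher in replicate 2 (7 under TMM scaling), with a summed log2 ratio of 1.12, which rested mainly on the joined entry of miR-486a-5p and miR-486b-5p (without it, 215 CPM in replicate 1 and 307 CPM in replicate 2). The 5 markers of smooth muscle and stroma were all higher in replicate 2, by 0.25 to 0.80 on the log2 scale. The 6 germ cell markers were lower in replicate 2, with a summed log2 ratio of -1.20, and so were the 3 detected brain markers, with -1.22, except that 1 marker of each list was higher under TMM scaling. TMM scaling gave summed log2 ratios of -0.85 for germ cells, -0.87 for brain, 1.47 for blood and 0.95 for smooth muscle and stroma. The epithelial markers were mixed, with 5 of 6 lower in replicate 2, a range of -0.71 to 0.99 and a summed log2 ratio of -0.29. Under TMM scaling 3 of these 6 were higher, and the summed ratio was 0.06. The detected endothelial marker, miR-126a-3p, had a log2 ratio of 0.04 (0.39 under TMM scaling). The part of these shifts in the difference of miR-181c and miR-181d was not tested.

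The miRs nearest in level to each member were named by the distance of log2(CPM + 1) over the 2 libraries. For miR-181a-5p these were miR-27b-3p (3228 and 2524 CPM), let-7a-5p (3358 and 2405 CPM) and miR-125a-5p (3935 and 3471 CPM). For miR-181b-5p the nearest was miR-126a-3p, a miR of endothelial cells, with 80.3 and 82.5 CPM at a distance of 0.0202. The next were miR-30e-3p and miR-19b-3p, at distances of 0.229 and 0.321. For miR-181c-5p no miR was as near, and miR-127-3p (498 and 391 CPM), let-7e-5p (347 and 359 CPM) and miR-151-3p (631 and 513 CPM) lay at distances of 0.660 to 0.745. For miR-181d-5p the nearest were miR-199a-5p (39.0 and 49.8 CPM), miR-378a-3p (40.7 and 47.3 CPM) and miR-125b-2-3p (42.0 and 47.8 CPM). Their distances of 0.489 to 0.596 were also larger than those of the miRs nearest to miR-181b-5p. With 2 libraries such a likeness is one of level only.

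The next miRs along the chromosome were set beside the chromosome 8 cluster. Within 50 kb of a miR-181 arm, the RefSeq table held miRs on chromosome 8 only, namely those of the Mir23a, Mir27a and Mir24-2 cluster on the opposite strand, about 30 kb away, and Mir3074-2, which lies antisense to Mir24-2. miR-23a-3p had 94.1 and 62.5 CPM, a log2 ratio of -0.59. miR-27a-3p had 102 and 101 CPM, a log2 ratio of -0.01. miR-24-2-5p had 25.7 and 23.2 CPM, a log2 ratio of -0.15, and miR-24-3p, which a second hairpin also encodes, had 149 and 136 CPM. None of these 4 was higher in replicate 2 by total miR reads, unlike miR-181c and miR-181d, and under TMM scaling, which adds 0.35, only miR-23a-3p stayed below 0.

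The miR-181 family was set beside 3 chosen families of broadly expressed miRs, and by CPM it was above 1 of them and below the other two. The miR-30 family, 11 entries, stood at 13014 and 11463 CPM, the miR-26 family, 5 entries, at 6183 and 5564 CPM, and the miR-15/16 family, 13 entries, at 2789 and 1605 CPM. In each of them 1 entry held most of the reads, as did miR-181a-5p with 87.0% and 79.2% of all miR-181 reads. miR-26a-5p took 99.0% and 98.6% of its family, miR-30a-5p 75.6% and 81.1%, and miR-16-5p 86.9% and 79.4%. At least a 2-fold difference between the libraries was seen in 2 of 6 miR-181 entries, 0 of 3 miR-26 entries, 0 of 11 miR-30 entries and 5 of 10 miR-15/16 entries with at least 10 reads, against the 30.7% over all entries. These counts are small and were not tested.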

How the data were processed

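Small RNA from sperm of naive WT mice was sequenced in 2 libraries. The authors trimmed reads below Phred 28, removed adapters with cutadapt (1.8.1 in the submitters' processing notes), kept reads of at least 15 bases and mapped them with bowtie (1.1.2), at first without mismatches to miR and piRNA sequences. Later mapping steps allowed 1 mismatch. The notes also name HTSeq and the build mm10/GRCm38. Which step gave the counts, and the miR annotation release, are not given in the sources used here. The labels name a TruSeq RNA v2 kit, the methods a TruSeq kit for small RNA. The deposited values are raw read counts per mature miR, not normalized or pooled. Totals exclude the 5 summary entries. Reads with end additions or sequencing errors may be missing, if the exact mapping gave the counts.

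CPM, Wilson or exact intervals (level 95%), log2 ratios (pseudocount 0.5 reads) and arm shares came from Python 3.11.15 (scipy 1.17.1, pandas 2.3.3, numpy 2.4.6), with scaling alternatives from edgeR 4.0.16 and DESeq2 1.42.0 (R 4.3.3) and plots from matplotlib 3.10.9. Computations were tested on simulated data. The precision is set by 4049599 and 5648067 miR reads. Both libraries form 1 group and no test was made. Entries named outside the family were the 3 nearest in level to each member, miRs within 50 kb, cell type markers and 3 other families. The members and lists were chosen with earlier results of these data known. The marker miR-880-3p was not matched.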

Additional observations from a re-analysis of the deposited data

How the results depend on the processing

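The summed family level of 3704 CPM was 2501 CPM with all listed reads as denominator and 17802 CPM with miR-10a-5p and miR-10b-5p left out of it, both by construction, and lay between 3544 and 3864 CPM with each library alone. Its log2 ratio of replicate 2 to replicate 1 was -0.12 by total miR reads and changed sign to 0.23 (TMM), 0.22 (DESeq2), 0.13 (all listed reads) and 0.039 (without miR-10a-5p and miR-10b-5p). The ratio of miR-181a-5p changed to 0.091 (TMM) and 0.083 (DESeq2), and that of miR-181a-1-3p to 0.015 and 0.0069. A scaling adds the same number to every ratio. Of the 6 detected entries 5 passed a minimum of 10 reads, 4 a minimum of 10 CPM and 2 a minimum of 100 CPM in each library, and 6 were seen in each library alone. The rank of miR-181a-5p lay between 15 and 16, its share of the 5p reads between 79.7% and 87.2%, and the 5p share of all reads between 99.4% and 99.7% with each library alone. As any of 2 values lies within 1 SD of their mean, no stability is read from these ranges. The log2 ratio needs both libraries, so none could be left out. No paired analysis was possible because there is only 1 group.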
